A study of Saccharomyces cerevisiae with 6 samples.

Results

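The nuclear genes of the mitochondrial respiratory chain and of the ATP synthase were followed in budding yeast with a changed actin. The set was given by gene identifier and holds 39 of the 7126 gene rows of the count table: the 4 subunits of succinate dehydrogenase (complex II), 9 subunits of cytochrome bc1 (complex III), 7 nuclear subunits of cytochrome c oxidase (complex IV, without the exchangeable subunits COX5A and COX5B), 16 genes of the ATP synthase and its inhibitors (complex V), and the 3 NADH dehydrogenase genes NDI1, NDE1 and NDE2. All 39 identifiers were found, matched their symbols in the R64 annotation, and passed the filter on low counts.

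Poly(A)-selected RNA was sequenced from 2 genotypes of Saccharomyces cerevisiae, both labelled as the S288C strain: wild type (WT) and R256C, in which arginine of actin is replaced by cysteine at the numbered residue. Each genotype had 3 libraries, labelled as biological replicates, from untreated cultures in rich glucose medium (YPD) at 30 °C, collected early in exponential growth once the optical density was 0.9. How many independent isolates of the R256C strain were used is not given in the sources used here, so the substitution cannot be told apart from anything else that sets the strains apart. The comparison asks which mRNAs have another level in the strain with this actin.

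In yeast the electrons of NADH enter the chain through single-polypeptide dehydrogenases in place of the large proton-pumping complex I of animals. NDI1 faces the matrix, while NDE1 and NDE2 oxidise cytosolic NADH at the outer face of the inner membrane. Succinate dehydrogenase also feeds electrons into ubiquinone, cytochrome bc1 passes them to cytochrome c, and cytochrome c oxidase passes them to oxygen. The proton gradient made on the way drives the ATP synthase. On glucose, yeast ferments and holds much of this machinery down, and the HAP2/3/4/5 complex, which binds CCAAT in promoters, is the best known activator of these genes, with HAP4 as its activating and regulated subunit.

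Total reads in genes ranged from 8967232 to 16905818 per library, of which the 39 members took 45959 to 64709 reads. Both strains carried a-specific transcripts of the mating type (MFA2 at 1498 ± 162 CPM in the WT libraries against 1632 ± 55.8 CPM, SD, n = 3 each; CPM are counts brought to one common library size, with TMM factors) and had 0 reads of URA3, LEU2 and MET17. The other strain markers of the list, HIS3, TRP1 and LYS2, had reads in every library and were not called. Of the 10 tested mating and strain markers 1 was called, beside 42.7% of all tested genes in either direction. It was the alpha-specific MF(ALPHA)1, which rose from 0.671 to 1.54 CPM on only 7 to 21 reads per library. ACT1, the actin gene, was at 1512 to 2094 CPM in WT and at 1354 to 1404 CPM in R256C. All its R256C libraries lay below WT, as for 27.3% of all tested genes. It was not called (log2 fold change -0.34, edgeR adjusted p = 0.124). Counts per gene do not show the substitution itself. WT replicate 2 stood apart from the other WT libraries, and it bears on this set: it was the lowest of the 3 WT libraries for 23 of 39 members, beside 47.1% of all tested genes. Calls that rest on it are therefore also given without it, while sums and ratios are not. The p-values set the difference between the strains against the spread between cultures of the same strain. That spread was estimated for each gene over both strains together and drawn toward that of other genes at a similar level.

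The CCAAT sequence was common in front of these genes. It was sought on both strands in the 500 bases before each start codon of the R64 genome and found for 36 of 39 members, against 62.4% of 6000 nuclear protein-coding genes with a full window. The exceptions were CYT1, COX4 and NDE2, for which these letters are not in this window. Between 100 and 300 bases before the start codon it was found for 34 of 39 members and 31.4% of all genes, and the longer form CCAATNA, which contains it, anywhere in the window for 33 members and 24.3% of all genes. The band and the longer form were chosen after the CCAAT matches had been seen. The following windows of R64, each the match nearest to the start codon among those at least 100 bases away and read on the strand that spells CCAAT (capitals), are shown for the 5 members with the largest rises that have one and, last, for 3 members that were not called, so that the flanks can be compared. In lower case, the COR1 window holds a second CCAAT and the SDH2 window holds one on the other strand, read here as attgg.
NDE1, chrXIII:556720-556748, plus strand: atcaagaacaggCCAATgagcgttgtctt
SDH2, chrXII:54069-54097, minus strand: cctcgcattggcCCAATtagctccggtgt
RIP1, chrV:107001-107029, plus strand: ctccataacggaCCAATcagcgttttgcg
ATP1, chrII:36774-36802, minus strand: aatctaataagaCCAATtgaaagagctat
COR1, chrII:135839-135867, minus strand: accaatgaaatgCCAATaaattaacagtg
SDH3, chrXI:179508-179536, minus strand: gggctaccgcagCCAATcagaatggacct
NDI1, chrXIII:30018-30046, minus strand: tattcattcggaCCAATcatatgaaggca
QCR2, chrXVI:919184-919212, plus strand: attcccaacgaaCCAATagaaggcccgcc

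A CCAAT lay before 17 of the 18 members that rose and 19 of the 21 that were not called. The longer form lay before 17 and 16 of them. The binding sequence of HAP1, another activator of respiratory genes, a pair of CGG triplets around a TA step, was sought on both strands and was found before QCR6 alone among the members, where it matched at 2 places, and before 0.35% of all genes. HAP4 mRNA itself was at 118, 89.2 and 114 CPM in WT and at 806, 751 and 666 CPM in R256C, a 6.93-fold rise (log2 fold change 2.79 with SE 0.15, edgeR adjusted p = 1.6e-05). Of its partners, HAP2 rose (log2 fold change 0.49, adjusted p = 0.00732), and HAP3 (0.25) and HAP5 (-0.21) were not called. At a similar log2 fold change HAP3 was called higher without WT replicate 2 (0.27, adjusted p = 0.0306). In that fit 29.4% of all tested genes rose and 29.5% fell. The mRNA of HAP1, the other activator named above, was not called (0.17).

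Across the set, 18 mRNAs rose, among them those of subunits of each complex and of 1 NADH dehydrogenase, and no member fell. With edgeR's quasi-likelihood test over all 6337 tested genes, 18 of 39 members rose in R256C at an adjusted p under 0.05 and 0 fell, while 21.2% of all tested genes rose and 21.4% fell. At an unadjusted p under 0.05, 20 members were higher and 1 was lower, and DESeq2 called 18 higher and 1 lower, STF1. The median log2 fold change was 0.27 over the members and -0.012 over all tested genes. Most rises were modest: only NDE1 and SDH2 rose by at least 2-fold, which 5.76% of all genes did. The 3 R256C libraries lay above all WT libraries for 22 members (27.7% of all genes) and below them for ATP14 alone (27.3%).

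Leaving out single libraries moved these counts. Without WT replicate 2, 21 members rose and 6 fell, while 29.4% of all genes tested in that fit rose and 29.5% fell. The rises numbered 16 without WT replicate 1 (21.1% of all genes), 11 without WT replicate 3 (13.7%), 12 without R256C replicate 1 (16.0%), 10 without R256C replicate 2 (14.9%) and 10 without R256C replicate 3 (14.4%). No member fell in these 5 fits, in which 12.9% to 20.2% of all genes did. The same 10 members rose under all 11 alternatives: NDE1, SDH2, RIP1, CYT1, COR1, QCR8, COX6, COX13, ATP1 and ATP3. How many of all genes did so was not counted, but it cannot exceed the 876 that rose without WT replicate 3. Scaling by library totals alone, under which 1639 genes of the whole table rose and 886 fell in place of 1345 and 1358, gave 20 members that rose and 0 that fell.

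**Figure D1:**
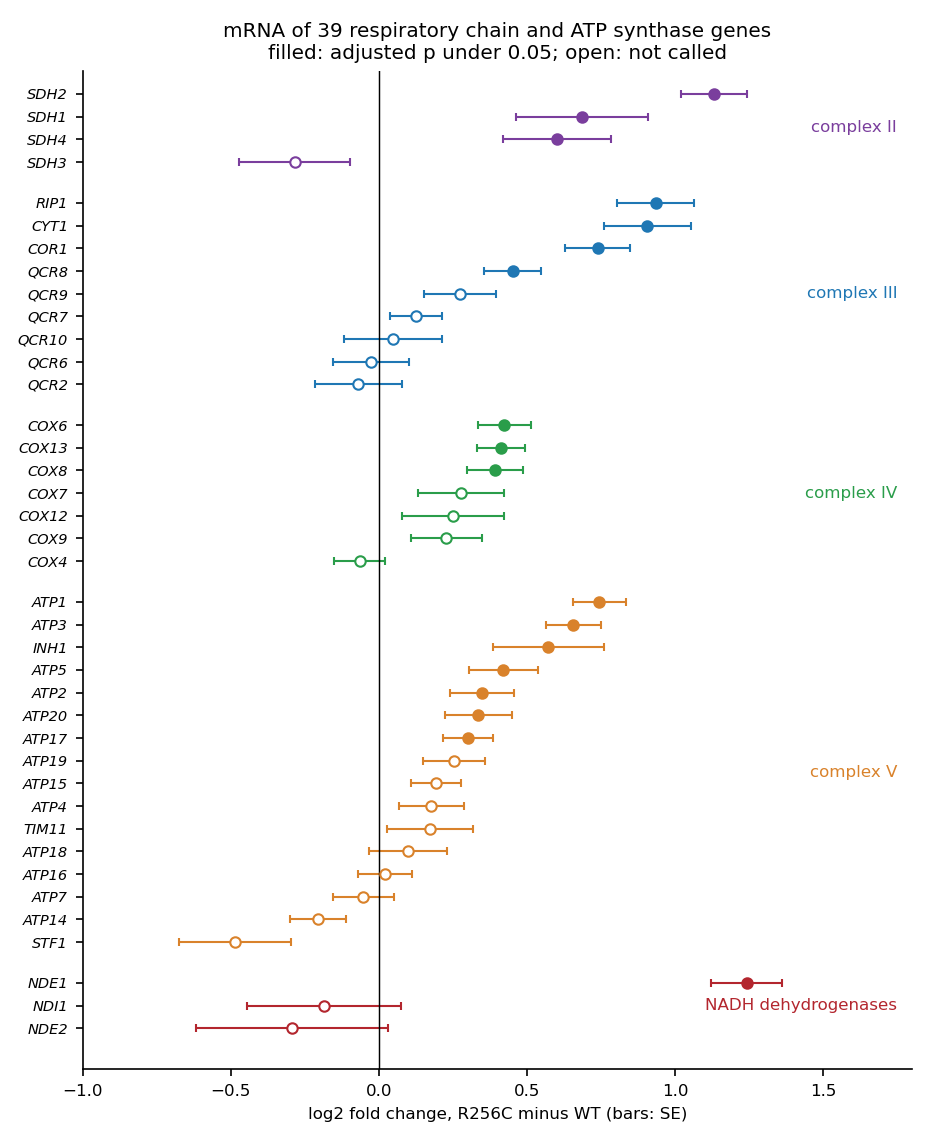
Log2 fold change (R256C minus WT, bars SE) of the 39 members, ordered within each complex; filled points passed edgeR's test at an adjusted p under 0.05. All 18 filled points lie to the right of 0, and the points farthest right are NDE1 (1.24) and SDH2 (1.13).

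The 39 members together came to 4566, 3594 and 4297 CPM in the WT libraries, in the order of their numbers, and to 5248, 5574 and 5069 CPM in the R256C libraries. The ratio of the group means was 1.28, and the lowest R256C library lay above the highest WT library. NDE1 alone made up 27% of the summed difference in CPM, followed by COR1 (12.3%), ATP1 (11.9%) and ATP2 (10.2%). By complex the ratio of summed CPM was 1.23 for complex II, 1.31 for complex III, 1.19 for complex IV, 1.23 for complex V and 1.42 for the NADH dehydrogenases. The sums of complex II overlapped between the strains (419.6 to 724 CPM in WT, 672 to 762 CPM in R256C), while those of the other complexes and of the dehydrogenases did not. WT replicate 2 was well below the other WT libraries in the sum of complex II (419.6 CPM beside 724 and 633). The same held for complex III (830 beside 1073 and 1022) and the dehydrogenases (420 beside 799 and 633). Their ratios, and that of all members, are raised by this library and would be lower without it. These sums are descriptions, were not recomputed without WT replicate 2 and were not tested.

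Of the entry points for NADH, NDE1 rose and NDI1 and NDE2 were not called. NDE1 (YMR145C, chromosome XIII, 554793 to 556475, minus strand), the external dehydrogenase, was at 243, 196 and 242 CPM in WT and at 533, 563 and 514 CPM in R256C. Every R256C library held more than any WT library by a wide margin, and the rise was 2.36-fold (log2 fold change 1.24 with SE 0.12, edgeR adjusted p = 0.000139), the largest of the set. NDE2 (YDL085W), its paralogue at the same face of the inner membrane, was at 139.6, 46.0 and 82.2 CPM in WT and at 73.4, 73.1 and 71.7 CPM in R256C. All R256C values fell inside the WT range, and NDE2 was not called (-0.29, SE 0.32, adjusted p = 0.494). NDI1 (YML120C), the internal dehydrogenase, was at 417, 178 and 308 CPM in WT and at 259, 296 and 239.6 CPM in R256C. It was not called either (-0.19, SE 0.26, adjusted p = 0.593).

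NDE2 and NDI1 were the members with the widest spread in WT, and WT replicate 2 lay 1.22 and 1.01 below the mean of the other WT libraries on the log2 scale. Without that library both were called lower in R256C, NDE2 at -0.61 (adjusted p = 0.00304) and NDI1 at -0.46 (0.00412), and NDE1 remained higher. Without WT replicate 1, in contrast, their values were 0.19 and 0.12 and neither was called. Per kilobase of coding sequence, the level of NDE1 was 1.69 to 4.14 times that of NDE2 in the WT libraries and 6.97 to 7.49 times in the R256C libraries. Against NDI1 the ratio was 0.534 to 1.01 in WT and 1.74 to 1.96 in R256C. In both ratios the strains did not overlap. The pairs were chosen with earlier results known, and how often ratios separate the strains among all gene pairs was not examined. Per kilobase NDE1 had the highest level of the 3 dehydrogenase mRNAs in each R256C library and, by a ratio to NDI1 of 1.01, in WT replicate 2.

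**Figure D2:**
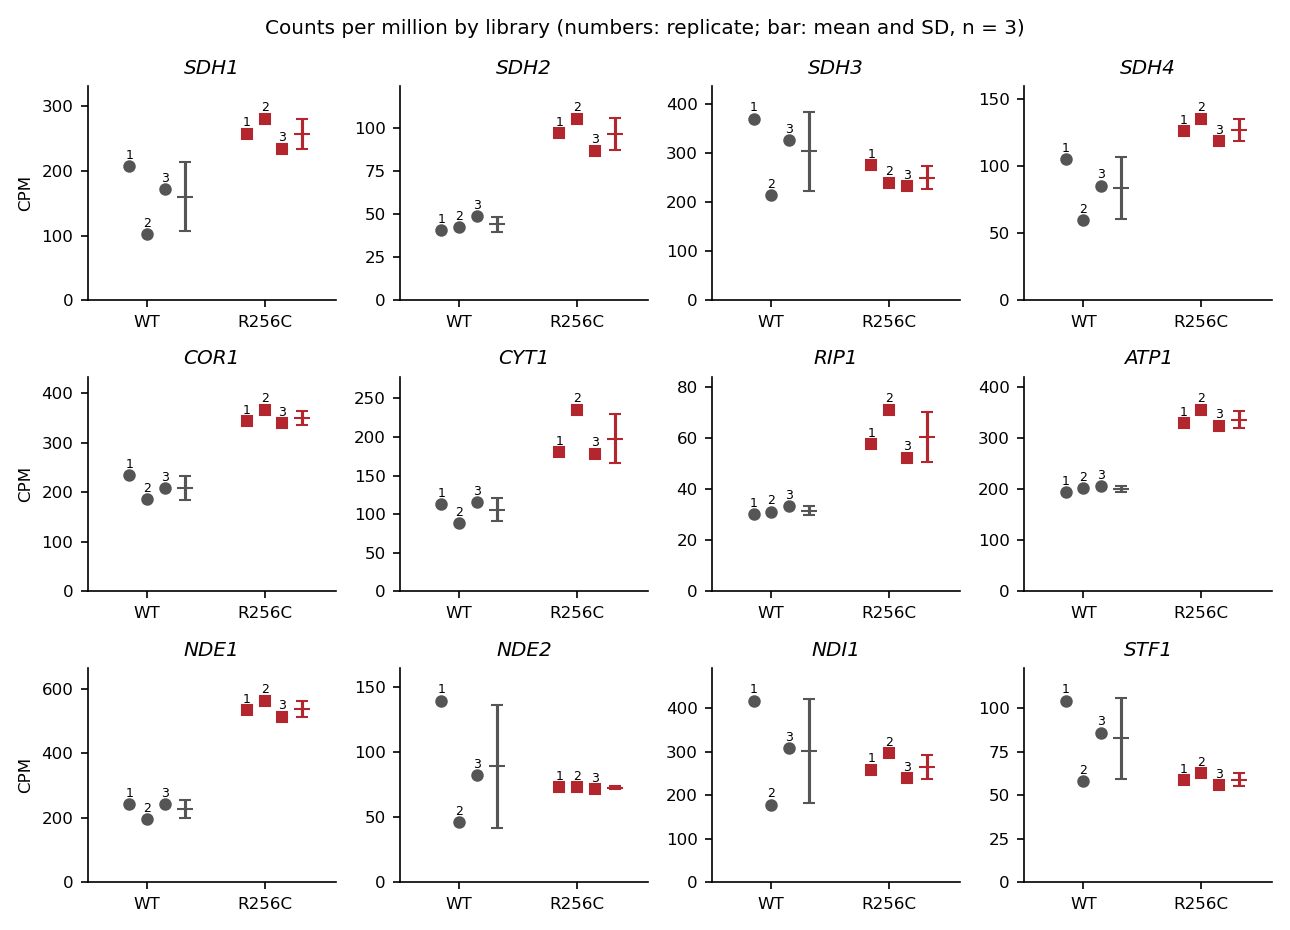
CPM in each library for 12 members (circles WT, squares R256C, numbers the replicate, bars mean and SD, n = 3). The R256C squares lie above all WT circles for NDE1, SDH1, SDH2, SDH4, COR1, CYT1, RIP1 and ATP1 and overlap the WT range for SDH3, NDE2, NDI1 and STF1, where WT replicate 2 is the lowest WT point.

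Succinate dehydrogenase, which links the tricarboxylic acid cycle to the chain, had 3 subunits that rose and 1, SDH3, that was not called. SDH2 (YLL041C, chromosome XII, 53131 to 53931, minus strand), the iron-sulfur subunit, was at 40.7, 42.7 and 48.8 CPM in WT and at 96.9, 105.4 and 86.9 CPM in R256C. The WT libraries agreed closely, and SDH2 rose 2.19-fold (log2 fold change 1.13 with SE 0.11, edgeR adjusted p = 0.000163). SDH1 (YKL148C), the flavoprotein, was at 207, 102 and 171 CPM in WT and at 257, 280.0 and 234 CPM in R256C. It rose by 0.68 on the log2 scale (SE 0.22, adjusted p = 0.037).

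The membrane anchor of complex II, which holds the ubiquinone site, is made by SDH3 and SDH4. SDH4 (YDR178W) was at 106, 59.9 and 85.6 CPM in WT and at 126, 136 and 119 CPM in R256C and rose by 0.60 (SE 0.18, adjusted p = 0.0277). SDH3 (YKL141W), its partner, was at 371, 215 and 328 CPM in WT and at 277, 241 and 233 CPM in R256C and was not called (-0.28, SE 0.19, adjusted p = 0.251). The ratio of SDH3 to SDH4 per kilobase was 3.21 to 3.5 in WT and 1.62 to 2.01 in R256C, without overlap. That of SDH1 to SDH2 was 0.997 to 2.12 in WT and 1.10 to 1.12 in R256C, inside the WT range. How often such ratios separate the strains among all gene pairs was not examined. WT replicate 2 was low for SDH1, SDH3 and SDH4 (by 0.88, 0.70 and 0.67 on the log2 scale below the other WT libraries) but not for SDH2 (0.06).

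Without WT replicate 2, SDH3 was called lower (-0.48, adjusted p = 0.000448) and SDH1 and SDH4 were still called higher, at 0.44 and 0.41. Without WT replicate 1, SDH3 was at -0.12 and was not called. SDH1 and SDH4 were not called without WT replicate 3 or without any single R256C library. Of the 4 paralogues of this complex, SHH3 (related to SDH3) fell by 0.53 on the log2 scale (edgeR adjusted p = 0.0163), and YJL045W (-0.12), SHH4 (-0.55) and TIM18 (-0.13) were not called. Without WT replicate 2 SHH4 was called lower too (-0.77, adjusted p = 8.67e-05).

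In cytochrome bc1, 4 of 9 members rose and 5 were not called, and both electron-carrying subunits were among those that rose. RIP1 (YEL024W, chromosome V, 107260 to 107907, plus strand), the Rieske iron-sulfur protein, was at 30.3, 31.2 and 33.4 CPM in WT and at 57.7, 71.0 and 52.3 CPM in R256C, a 1.91-fold rise (log2 fold change 0.93, SE 0.13, adjusted p = 0.000794). CYT1 (YOR065W), cytochrome c1, was at 113, 88.3 and 115 CPM in WT and at 180.4, 235 and 178 CPM in R256C, a 1.87-fold rise (0.91, SE 0.15, adjusted p = 0.00169). R256C replicate 2 was the highest library for both genes.

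COR1 and QCR2 encode the paired core proteins of the same complex. COR1 rose and QCR2 was not called. COR1 (YBL045C) was at 234, 186 and 209 CPM in WT and at 344, 367 and 339 CPM in R256C and rose 1.67-fold (0.74, SE 0.11, adjusted p = 0.00113). QCR2 (YPR191W) was at 191, 126 and 171 CPM in WT and at 155, 166 and 144 CPM in R256C. Its groups overlapped and it was not called (-0.07, SE 0.15, adjusted p = 0.726), but without WT replicate 2 it was called lower (-0.22, adjusted p = 0.0367). Without WT replicate 1, QCR2 was at 0.06 and was not called.

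Of the 5 small subunits, QCR8 rose from 70.8 ± 6.82 to 96.9 ± 2.87 CPM (SD, n = 3 each; 0.45, SE 0.097, adjusted p = 0.00648). QCR9 (0.27) and QCR7 (0.13) lay above WT in all R256C libraries but were not called. QCR10 (0.05) and QCR6 (-0.03), the acidic subunit, overlapped between the strains, and the sign of QCR6 and of QCR10 turned when single libraries were left out. QCR9 and QCR10 are the only 2 members with an intron.

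The nuclear subunits of cytochrome c oxidase surround a core made in mitochondria, and 3 of 7 rose, none by more than 0.42 on the log2 scale. COX6 was at 46.3, 42.4 and 47.6 CPM in WT and at 59.6, 60.9 and 62.3 CPM in R256C (log2 fold change 0.42, SE 0.091, adjusted p = 0.00654). COX13 was at 57.3, 59.5 and 61.2 CPM in WT and at 78.5, 78.6 and 79.8 CPM in R256C (0.41, SE 0.081, adjusted p = 0.00446). The groups were far apart for both genes beside the spread within each strain.

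COX8 also rose, from 47.4 ± 1.33 to 62.2 ± 4.51 CPM (SD, n = 3 each; 0.39, SE 0.094, adjusted p = 0.011), but lost its call when WT replicate 3, R256C replicate 2 or R256C replicate 3 was left out. COX7 (0.28), COX12 (0.25) and COX9 (0.23) were not called, and neither was COX4 (-0.06), a subunit needed for assembly, which was at 87.7, 82.8 and 88.3 CPM in WT and at 77.8, 87.8 and 81.8 CPM in R256C. COX7 and COX12 were highest of the WT libraries in WT replicate 2 and were called higher without it (0.39 and 0.40, adjusted p = 0.0243 and 0.0265). Without WT replicate 1 they were at 0.17 and 0.14 and were not called. The exchangeable subunit genes COX5A (-0.03) and COX5B (0.15) were not called. CYC1, the main cytochrome c, which carries electrons from complex III to complex IV, fell from 73.6 ± 8.83 to 36.1 ± 2.63 CPM (SD, n = 3 each; -1.03 on the log2 scale, SE 0.12, adjusted p = 0.000302). CYC7, the minor form, was at 6.92 ± 1.64 and 10.5 ± 2.75 CPM and was not called (0.61, adjusted p = 0.0849), and CYC3, which attaches heme to cytochrome c, rose (0.55, adjusted p = 0.00239).

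**Figure D3:**
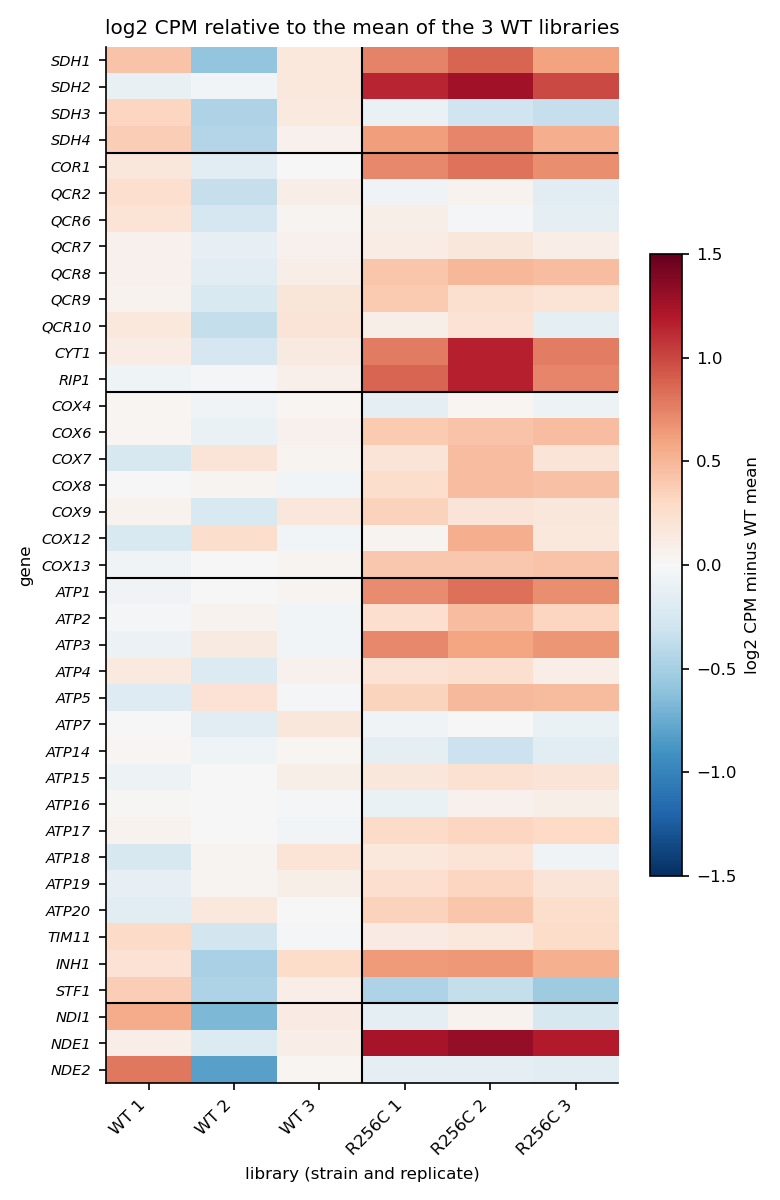
Log2 CPM of each member in each library, relative to the mean of the 3 WT libraries (lines separate complexes and strains). The R256C columns are darkest red for NDE1, SDH2, CYT1 and RIP1 and near white for QCR6, COX4, ATP7 and ATP16, and the WT replicate 2 column is blue for SDH1, SDH3, SDH4, INH1, STF1, NDI1 and NDE2.

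In the ATP synthase 7 of 16 genes rose, and the largest rises were those of ATP1 and ATP3. ATP1 (YBL099W, chromosome II, 37053 to 38690, plus strand), the alpha subunit, was at 194, 202 and 207 CPM in WT and at 329, 356 and 325 CPM in R256C. The WT values lay within a narrow band, and ATP1 rose 1.67-fold (log2 fold change 0.74, SE 0.089, adjusted p = 0.000426). ATP3 (YBR039W), the gamma subunit of the rotating stalk, was at 85.5, 99.9 and 88.1 CPM in WT and at 150.1, 137 and 144 CPM in R256C and rose 1.58-fold (0.66, SE 0.093, adjusted p = 0.000888).

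ATP2 (YJR121W), the beta subunit that carries the catalytic sites, was at 425, 446 and 417 CPM in WT and at 511, 591 and 538 CPM in R256C. It rose 1.27-fold (0.35, SE 0.11, adjusted p = 0.0303). ATP2 was not called without WT replicate 1, WT replicate 3 or any single R256C library, nor with the replicate number as a block (0.35, adjusted p = 0.0577). The alpha and beta subunits are present in equal number in the enzyme, and the ratio of ATP2 to ATP1 per kilobase was 2.15 to 2.35 in WT and 1.65 to 1.77 in R256C. This pair, too, was chosen with earlier results known. ATP15 (0.19), the epsilon subunit, lay above WT in all R256C libraries without being called, and ATP16 (0.02), the delta subunit, overlapped, so that 3 of these 5 genes of the head and central stalk rose.

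Of the 4 genes of the peripheral stalk, which keeps the head from turning, ATP5 rose and ATP4, ATP7 and ATP14 were not called. ATP5, the subunit that confers sensitivity to oligomycin, was at 73.8, 98.4 and 83.4 CPM in WT and at 107, 118 and 118 CPM in R256C (log2 fold change 0.42, SE 0.12, adjusted p = 0.0198). ATP5 was no longer called once WT replicate 3, R256C replicate 2 or R256C replicate 3 had been left out. ATP4 was at 0.18 and ATP7 at -0.05 on the log2 fold change scale. ATP14 was at 60.8, 56.8 and 60.6 CPM in WT and at 54.2, 47.6 and 52.8 CPM in R256C. It was the one member whose R256C libraries all lay below WT and was not called with all 6 libraries (-0.21, adjusted p = 0.109). ATP14 was called lower without WT replicate 2 (-0.24, adjusted p = 0.0395) but not without WT replicate 1 (-0.19).

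Of the 5 small membrane subunits, ATP17 (0.30, adjusted p = 0.0216) and ATP20 (0.34, adjusted p = 0.0404) rose. Neither was called without WT replicate 3 or any single R256C library, nor ATP20 without WT replicate 1. ATP20 encodes subunit g, which with TIM11, subunit e, holds the enzyme in dimers. TIM11 (0.17), ATP18 (0.10) and ATP19 (0.25), all of them small subunits too, were not called. ATP19 was called without WT replicate 2 (0.27, adjusted p = 0.0478) but not without WT replicate 1 (0.19).

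INH1 and STF1 encode the inhibitors of the ATP synthase, small proteins that block ATP hydrolysis when the gradient fails. INH1 (YDL181W) was at 35.5, 21.7 and 36.7 CPM in WT and at 47.3, 47.7 and 44.1 CPM in R256C and rose 1.49-fold (log2 fold change 0.57, SE 0.19, adjusted p = 0.0366). STF1 (YDL130W-A), its paralogue, was at 104, 58.3 and 86.0 CPM in WT and at 58.6, 63.0 and 55.7 CPM in R256C and was not called (-0.49, SE 0.19, adjusted p = 0.0677). WT replicate 2 was low for both, by 0.73 and 0.70 on the log2 scale. Without it STF1 was called lower (-0.69, adjusted p = 3.6e-05) and INH1 was at 0.36 and still called. Without WT replicate 1, STF1 was at -0.28 and was not called. INH1 was not called without any single R256C library. The ratio of INH1 to STF1 per kilobase was 0.344 to 0.432 in WT and 0.767 to 0.817 in R256C. This ratio restates the opposite signs of their fold changes and was chosen with earlier results known.

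**Figure D4:**
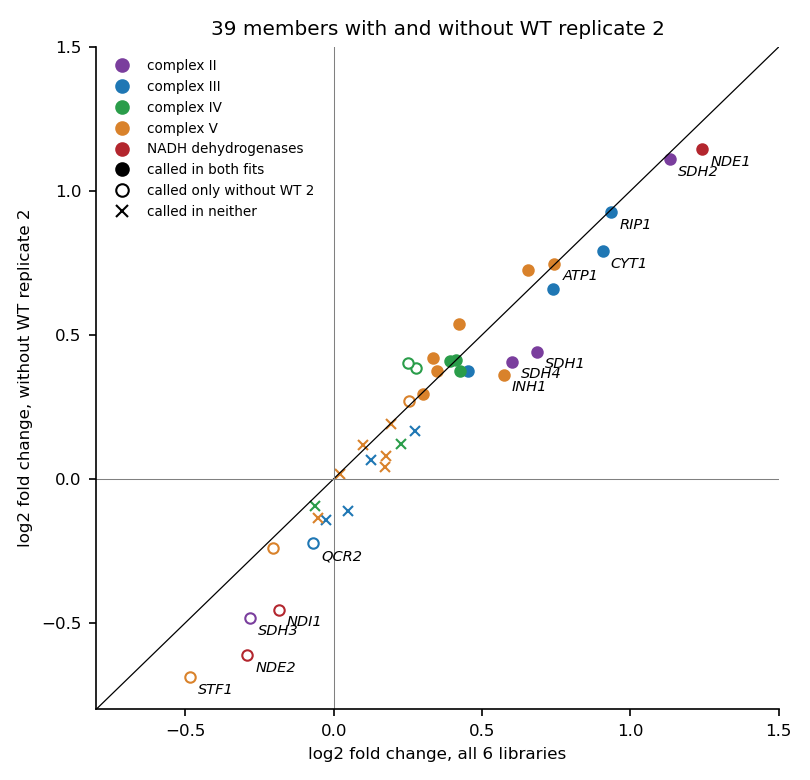
Log2 fold change of each member with all 6 libraries (horizontal) and without WT replicate 2 (vertical), with the diagonal of equal values. SDH1, SDH4, INH1, NDI1, NDE2, SDH3 and STF1 lie below the diagonal, and the open circles below 0 are the 6 members called lower without that library; filled circles were called in both fits and crosses in neither.

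Levels per kilobase of coding sequence differed widely between members. SDH3 had the highest level in WT (510.0 CPM per kilobase), followed by ATP15 (403), QCR6 (389) and QCR9 (386). The lowest were SDH1 (83.2), SDH2 (55.0), NDE2 (54.5) and RIP1 (48.8), so that SDH2 and RIP1, both among the members with the largest rises, were among the lowest. In R256C NDE1 moved from place 24 to place 8 (319 CPM per kilobase), and RIP1 (93.1) and SDH2 (120.4) stayed among the lowest. Transcript ends are not annotated in the reference, so that levels of short genes per kilobase of coding sequence leave out the untranslated length. The coefficient of variation between replicates had a median over members of 12% in WT and 6.18% in R256C, close to 12.2% and 6.68% for all tested genes.

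The other genes of the pathway, from fixed lists, were mixed. Their counts stand beside 21.2% of all tested genes that rose and 21.4% that fell. Of 26 assembly factors of cytochrome c oxidase, 3 rose and 7 fell (median log2 fold change 0.03). COX10 (1.00) of heme a synthesis and SHY1 (0.66) rose, and the copper factors COX17 (-0.74) and COX11 (-0.52) fell. Of 10 assembly factors of complexes II and III, 3 rose and 1 fell (median -0.01): CBP4 (0.72), SDH6 (0.62) and CYT2 (0.47) rose and SDH7 (-0.73) fell.

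Of 12 assembly and expression factors of the ATP synthase, 3 rose and 1 fell (median 0.15). AEP3 (0.96), FMC1 (0.76) and ATP11 (0.56) rose, and INA17 (-0.31) fell. Of 11 coenzyme Q genes, 3 rose and 2 fell (median 0.15), with COQ6 (0.86), COQ1 (0.51) and COQ3 (0.41) higher and COQ8 (-0.54) and COQ4 (-0.38) lower. Without WT replicate 2 the falls numbered 9 among the factors of cytochrome c oxidase. Those of complexes II and III had 3 falls and 4 rises, and those of the ATP synthase 2 falls and 5 rises. The coenzyme Q genes had 3 falls, with COQ9 (-0.47) added. Of all genes tested in that fit, 29.4% rose and 29.5% fell.

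Among 12 further dehydrogenases, carriers and associated proteins, 5 rose and 0 fell (median 0.24), beside 21.2% and 21.4% of all tested genes. Without WT replicate 2, 6 rose and 2 fell, beside 29.4% and 29.5% of all genes tested in that fit. GUT2, the mitochondrial glycerol 3-phosphate dehydrogenase, which like NDE1 takes up electrons of cytosolic origin, was at 95.1, 65.4 and 76.8 CPM in WT and at 219.5, 228 and 214 CPM in R256C (log2 fold change 1.48, SE 0.13, adjusted p = 0.000114). The ADP/ATP carrier genes AAC1 (1.10) and PET9 (0.65), which exchange the product of the ATP synthase across the inner membrane, rose, and AAC3 (-0.18) was not called. COX26 (1.26), a small protein of the supercomplexes, rose from 3.23 ± 0.516 CPM, a low level. The 7 subunits made from mitochondrial DNA, among them COX1 and COB, had 0 to 6 reads per library in these poly(A)-selected libraries and were not tested.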

How the data were processed

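The authors deposited one table of whole-number read counts per gene for the 6 libraries, not normalized. TopHat, HTSeq and DESeq and the build R64 are named by the submitters' processing notes; their versions, settings and use of strand are not stated there. The 5 summary rows that name no gene were left out; reads at several loci were 53.1% to 57.2% of the table's total. No member overlaps another annotated gene row, but 6048 of 7126 gene rows matched the R64 annotation and overlap with the rest was not examined.

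The test was edgeR 4.0.16 (R 4.3.3), with filterByExpr, TMM factors and a quasi-likelihood F test of genotype alone. P-values were adjusted by Benjamini-Hochberg across the 6337 tested genes and called under 0.05. An SE was taken as the size of a log2 fold change over the square root of its F value. Alternatives were DESeq2 1.42.0, its size factors, library totals, no filter, a replicate block, and each library left out. The scripts were tested on simulated counts. No 2 replicates agreed within sampling noise (chi-square over its degrees of freedom at least 7.03). Columns of no sample numbered 0. Promoter windows came from the R64 genome of RefSeq. Members, lists, subunit roles and ratios were chosen with earlier results of these data known. Genes named were all members, ACT1, the HAP, cytochrome c and succinate dehydrogenase paralogue lists, and some markers of mating type and strain. Up to 4 called genes with the smallest p of each other list were named too. AAC3, COQ4, COQ9 and the markers printed were picked after their values were seen.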

Additional observations from a re-analysis of the deposited data

How the results depend on the processing

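DESeq2 size factors and no filter changed no member's call. DESeq2 gave 1 member that fell, STF1 (-0.49, adjusted p = 0.0407), 1 of complex V. Library totals alone called ATP15 and ATP19 higher, turned the sign of the uncalled ATP7 (0.0387), COX4 (0.0302), QCR2 (0.0149) and QCR6 (0.0609), and gave 886 genes of the whole table that fell. With the replicate block, ATP2 lost its call (17 members rose); same-numbered libraries correlated at -0.11, -0.07 and -0.07 in their deviations, so the numbers were not taken to pair the samples.

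With one library left out, 10 to 21 members rose and 0 to 6 fell. The rises ranged from 1 to 3 in complex II, 4 to 4 in complex III, 2 to 5 in complex IV, 2 to 8 in complex V and 1 to 1 in the dehydrogenases, and the falls from 0 to 1, 0 to 1, 0 to 0, 0 to 2 and 0 to 2. Over all genes, 876 to 1875 rose and 822 to 1884 fell. The median member was at 0.26 to 0.31. Signs turned for ATP7 (-0.14 to 0.0389), ATP16 (-0.0134 to 0.0766), ATP18 (-0.0141 to 0.20), NDE2 (-0.61 to 0.19), NDI1 (-0.46 to 0.12), QCR2 (-0.22 to 0.0591), QCR6 (-0.14 to 0.0832) and QCR10 (-0.11 to 0.14), each uncalled with all libraries. In an alternative added after the data were seen, without WT replicate 2, 2 succinate dehydrogenase paralogues fell. The assembly factors that fell numbered 3 (complexes II and III) and 2 (ATP synthase, with 5 rises), and the carriers 2. Of all genes tested in that fit, 29.4% rose and 29.5% fell. The cause of these shifts was not tested. Each strain rests on 3 cultures. For some members, such as COX13 in R256C (739 to 965 reads, coefficient of variation 0.926%), the spread seen between 3 libraries was no larger than counting error alone.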
